A study of Mus musculus with 6 samples.

Results

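Described here are 36 genes of glucose breakdown, the pentose phosphate pathway and the hypoxia-inducible factor (HIF), in bone marrow macrophages that lack Raf kinase inhibitor protein (RKIP). They were chosen by gene symbol from the 27458 genes of the study's expression table and ordered by pathway step. Each symbol was found, in 37 rows, because Aldoa has a second, nearly silent row (0 to 0.503 FPKM). The 6 libraries are RNA sequencing of primary mouse cells that grew out of marrow under macrophage colony-stimulating factor (M-CSF). Of these, 3 came from RKIP-/- mice (RKIP KO) and 3 from RKIP+/+ mice (WT), and all 6 shared the M-CSF culture with no further agent. RKIP was missing from the whole animal, so the comparison covers the growth of the cells as well as their final state. The labels give no strain, age or sex and do not say how many animals or cultures stand behind each library. Each p-value is therefore relative to the scatter among these libraries alone, part of which may be technical.

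Glycolysis splits glucose into pyruvate in a chain of cytosolic enzymes, and lactate dehydrogenase turns the pyruvate into lactate, which leaves through monocarboxylate transporters. The pentose phosphate pathway branches off after the first step and yields NADPH and ribose phosphate. HIF, a dimer of an oxygen-labile alpha subunit and a stable partner, activates many of the glycolytic genes, and macrophages are known to lean on glycolysis when they are activated by bacterial products.

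The labels and the cultures were checked first. Pebp1, which encodes RKIP, had a count of 0 in each RKIP KO library, against 39.2, 33.2 and 39.0 FPKM in WT libraries 1 to 3. FPKM counts fragments relative to transcript length and to the library's total, so it can be compared between genes. Estimated counts per library totalled 63607276 to 70059042 in RKIP KO and 53188659 to 55255365 in WT. All 12 macrophage markers were expressed, but 4 of them were higher and 5 lower in RKIP KO by the edgeR test used throughout. Of all tested genes, this test called 20.3% higher and 19.4% lower, which is the background for each marker count below. Mrc1 averaged 631 ± 17.4 FPKM in RKIP KO and 413 ± 15.7 FPKM in WT (SD, n = 3 each), and Csf1r, the M-CSF receptor, was also higher, at a log2 fold change (RKIP KO over WT) of 0.30. Tyrobp was lower at -0.53, a call that ended at -0.06 with an offset for transcript length and GC content. Lyz2 holds most of the markers' summed FPKM, with 16648 ± 88.8 FPKM in RKIP KO and 19286 ± 768 FPKM in WT. Its call as lower, at -0.27, also ended with the offset, at -0.03. Cd68 went from lower at -0.15 to higher at 0.12. With the offset, 5 of the 12 macrophage markers were higher and 1 lower, beside 17.0% higher and 14.6% lower of all tested genes. Neutrophil markers differed strongly. All 20 summed to 20.99 to 23.3 FPKM in RKIP KO libraries, against 104, 186 and 193 FPKM in WT libraries 1 to 3. Of these 20, 11 reached a mean of 1 FPKM and were tested, and 10 were lower in RKIP KO. Only Mmp8, Mmp9 and Csf3r averaged above 1 FPKM in both genotypes. Mmp8 and Mmp9 were lower at -0.93 and -2.09, and Csf3r did not pass at -0.11. The other tested markers, such as Ltf (means of 0.190 FPKM in RKIP KO and 6.95 FPKM in WT), were tested only through their WT level. For them the filter and the call are not independent. Of the proliferation markers, 9 of 10 were lower in RKIP KO, with sums of 93.9 to 106 FPKM in RKIP KO and 119 to 122 FPKM in WT. B cell markers summed to 45.6 to 52.5 FPKM in RKIP KO and 25.2 to 30.1 FPKM in WT libraries, most of it from Ighm, which was higher at 0.84. The 3 tested B cell markers did not move together: 2 were higher and 1, Cd22, was lower at -0.74. Erythroid and megakaryocyte markers summed to 139.6 to 145.8 FPKM in RKIP KO and 107.7 to 118 FPKM in WT. Nearly all of this sum was the platelet gene Pf4, at 137 to 144 FPKM in RKIP KO and 107 to 117 FPKM in WT. Pf4 was higher at 0.27, Epor, the other tested gene, did not pass at 0.59, and Gp9 was at 0 or not listed. With the offset Pf4 was at 0.75, and Epor passed as higher at 0.69. T and NK cell markers summed to 5.83 to 6.27 FPKM in RKIP KO and 4.9998 to 5.24 FPKM in WT. Il7r was higher at 0.34, a call that ended with the offset at 0.24, and Cd3e, Nkg7 and Ncr1 were at 0 or not listed. Mast cell and basophil markers summed to 1.55 to 1.85 FPKM in RKIP KO and 2.03 to 2.49 FPKM in WT, where Mcpt8 did not pass at -0.45 and Fcer1a and Ms4a2 were at 0 or not listed. Stromal markers summed to 1018 to 1138 FPKM in RKIP KO and 997 to 1098 FPKM in WT, where 2 of 8 tested genes were lower and Cxcl12 was higher at 0.57. With the offset 4 of the 8 were lower and 1 higher, beside 14.6% lower and 17.0% higher of all tested genes. In bulk RNA, fewer cells of a type and less RNA per cell cannot be told apart.

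The sequences that matter most for reading these values are those of Gapdh, because its row shares reads with copies of the gene, and a set of promoters that hold or lack the HIF core motif. Gapdh, the dehydrogenase of the lower pathway, lies on the minus strand at chr6:125161715-125165773. Its most abundant copy, the processed pseudogene Gm13394, lies on the minus strand at chr2:28933610-28934609. Over 1000 aligned bases the copy differs from the Gapdh transcript at 1 position, A438C, counted from the first base of the transcript. The coding sequence runs from base 93 to base 1091, so the difference lies inside it. Shown are bases 398 to 478 of the Gapdh transcript and the matching stretch of the copy (GENCODE M21, GRCm38), with the differing base in capitals.
Gapdh: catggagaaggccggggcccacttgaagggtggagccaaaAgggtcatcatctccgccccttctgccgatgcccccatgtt
Gm13394: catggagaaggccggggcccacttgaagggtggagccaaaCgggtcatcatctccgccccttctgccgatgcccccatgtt
Within the aligned stretch, a fragment that does not span this base fits both genes equally well. Further copies of Gapdh are counted beside its values.

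The HIF dimer is known to bind DNA at a short core, searched here as ACGTG on either strand, in RefSeq windows (GRCm38.p6) of 250 bases before to 50 bases after each annotated start. All 36 genes matched a window. The core was found in 24 of their 51 windows (47.1%), in 26.0% of the 10891 windows of all tested genes and in 19.6% of all 32851 windows. By gene, at least 1 window held it for 11 of the 22 genes that were lower in RKIP KO (50.0%) and for 9 of the 13 that did not pass the test (69.2%), beside 2571 of the 8545 tested genes with a window (30.1%). Any overlapping E-box CACGTG, which other factors bind, contains the core on both strands and was counted once. The 160 bases before the start are shown for genes that were lower in RKIP KO, with each core or E-box in capitals, on the plus strand except for Gpi1 on the minus strand. They are chr7:34230337-34230496 for Gpi1, chrX:106186940-106187099 for Pgk1, chr7:46845644-46845803 for Ldha and chr11:120948907-120949066 for Slc16a3.
Gpi1: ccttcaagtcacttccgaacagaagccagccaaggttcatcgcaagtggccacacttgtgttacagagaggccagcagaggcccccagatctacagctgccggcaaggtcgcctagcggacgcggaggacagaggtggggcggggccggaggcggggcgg
Pgk1: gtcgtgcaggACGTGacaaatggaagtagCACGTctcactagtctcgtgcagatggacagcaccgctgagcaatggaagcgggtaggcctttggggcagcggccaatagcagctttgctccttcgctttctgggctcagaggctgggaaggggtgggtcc
Ldha: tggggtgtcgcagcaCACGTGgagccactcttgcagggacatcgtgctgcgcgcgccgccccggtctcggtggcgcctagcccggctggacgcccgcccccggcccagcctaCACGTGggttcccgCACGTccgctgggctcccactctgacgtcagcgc
Slc16a3: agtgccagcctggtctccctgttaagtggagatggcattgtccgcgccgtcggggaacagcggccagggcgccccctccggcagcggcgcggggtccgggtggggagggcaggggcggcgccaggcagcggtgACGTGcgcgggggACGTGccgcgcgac
In Pgk1 the cores begin 150 and 131 bases before the start, and in Slc16a3 27 and 14 bases before it. Ldha has an E-box at 145 and another at 48 bases before the start shown, and a further core at 34. It has 2 annotated windows, of which the one with more matches is shown, and the other holds 0. Gpi1 has no match in its window. A match is a string of letters and shows neither binding nor a cause.

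Most of the 36 genes were lower in RKIP KO and none passed as higher. Of the 35 that reached a mean of 1 FPKM, 22 were lower, 0 were higher and 13 did not pass (edgeR quasi-likelihood test, adjusted p under 0.05 over 11636 genes). Across all tested genes the same test called 19.4% lower and 20.3% higher. Among the 35, 0 were higher at an unadjusted p under 0.05 in edgeR, and DESeq2 and limma also called 0 higher. In limma on log2(FPKM + 1), 17 of the 35 were lower, beside 14.1% lower and 23.8% higher of all tested genes. Their median log2 fold change (RKIP KO over WT) was -0.21, beside -0.01 for all tested genes, and 33 of the 35 lay below 0. In 22 of them every RKIP KO library lay below every WT library, an order found in 19.1% of all tested genes, and the reverse order, found in 32.4% of them, was seen in none of the 35. The level was also summed over all 36 genes, each by its own row and without copies such as those of Gapdh. It was 1832, 1876 and 1821 FPKM in RKIP KO libraries 1 to 3, against 2237, 2244 and 2249 FPKM in WT libraries. The sums were thus lower in every RKIP KO library. The part of other cells or of proliferation in these differences was not tested.

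**Figure D1:**
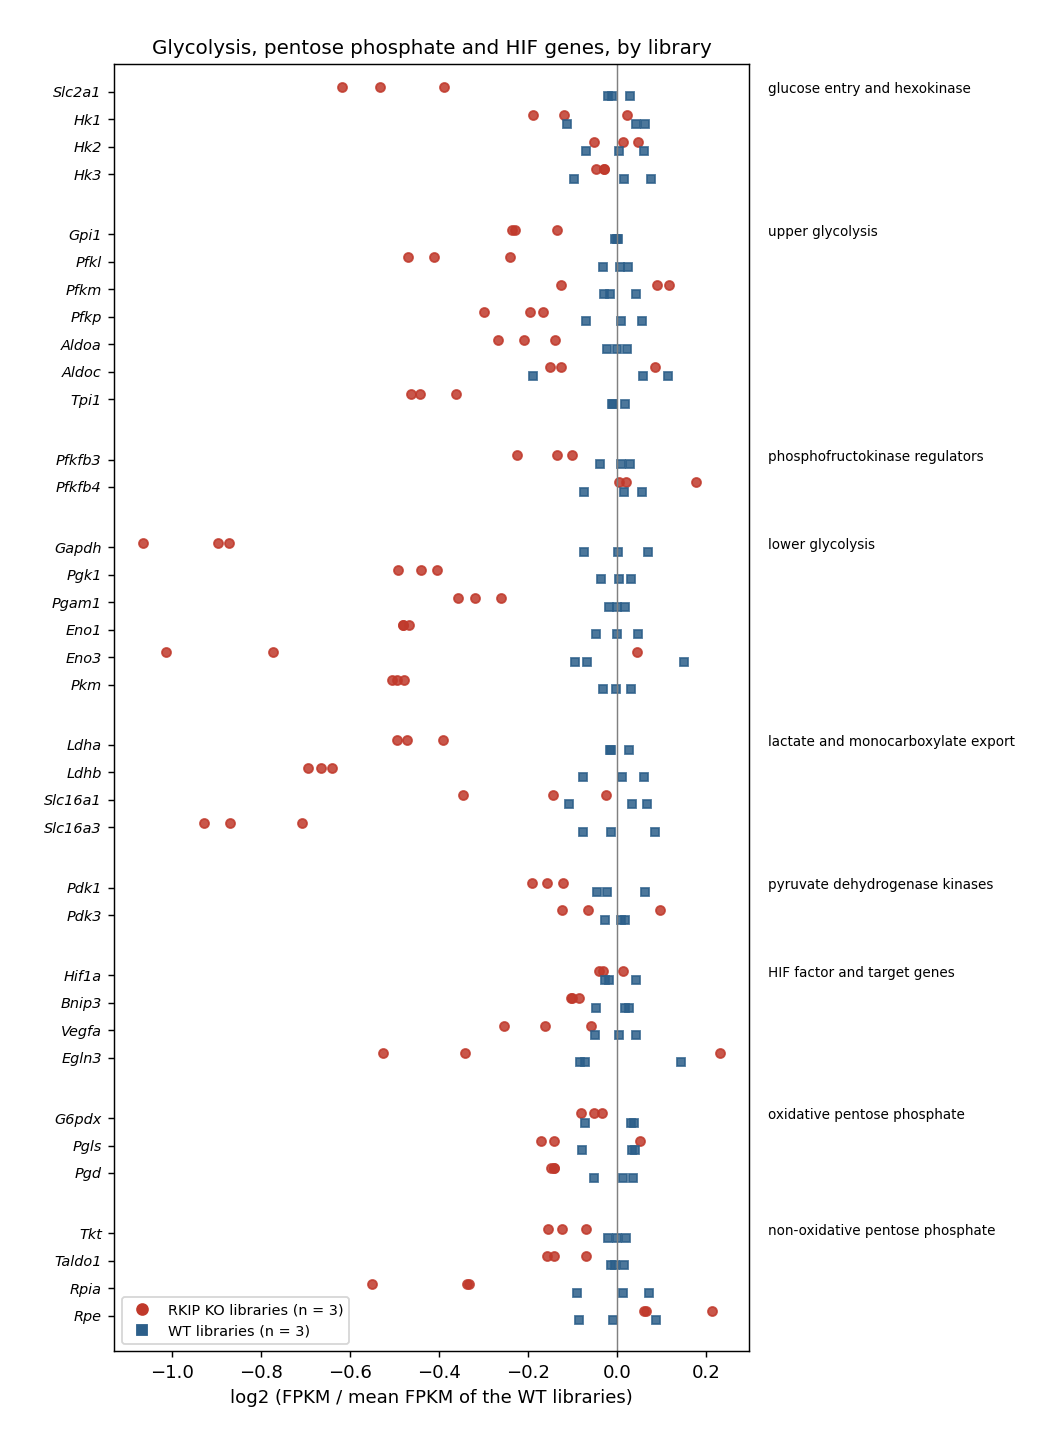
Level of each gene in each library, as the log2 ratio of its FPKM to the mean FPKM of the WT libraries, with RKIP KO libraries as red circles and WT libraries as blue squares. RKIP KO circles stand left of all WT squares for 22 tested genes, and farthest left for Gapdh, Eno3, Slc16a3 and Ldhb, while the Eno3 circles are spread.

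Fold changes can depend on the length and base composition of transcripts. A second edgeR fit, with an offset that takes out how each library depends on length and GC content, was therefore read beside the main one. With this offset, again 22 of the 35 genes were lower and 0 higher, beside 14.6% lower and 17.0% higher of all tested genes, and 19 of the 22 were lower in both fits. The median of the 35 was again -0.21. Single genes shifted more, and where a call changed it is said at the gene.

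**Figure D2:**
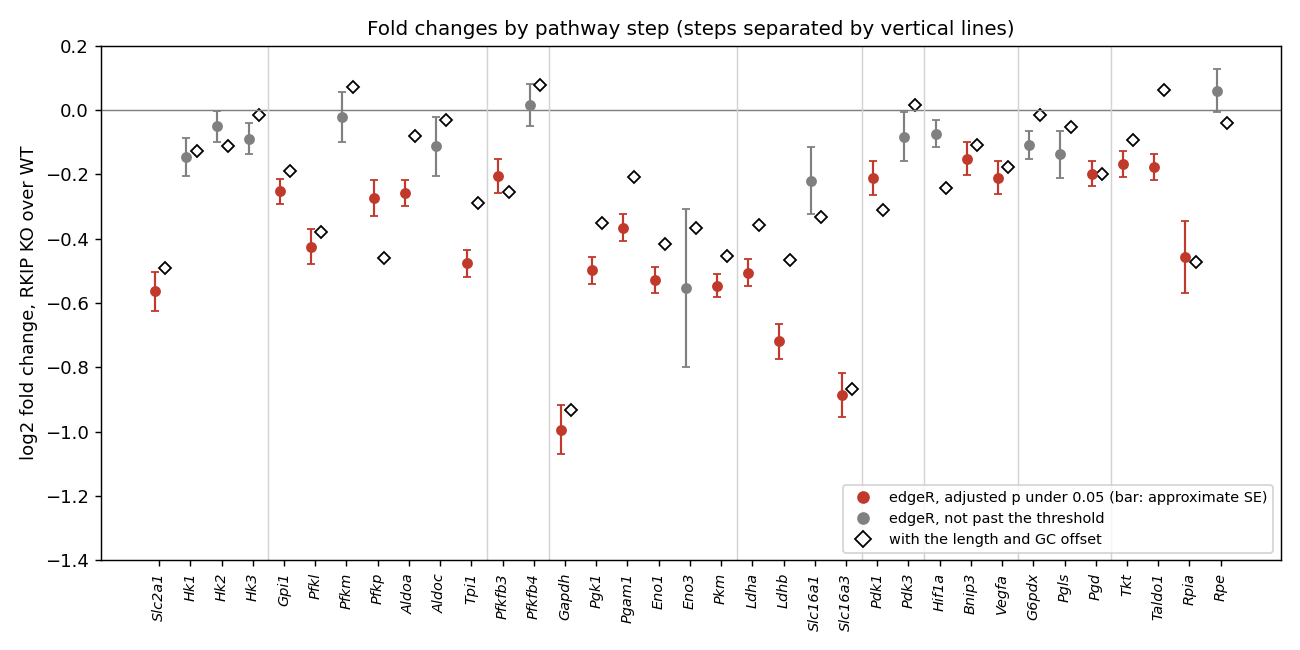
Log2 fold change of each tested gene, RKIP KO over WT, in pathway order, from edgeR (circles with approximate standard errors) and with the offset for length and GC content (diamonds). The single rows of Gapdh and Slc16a3 lie lowest in both, and Pfkm, Pdk3, Taldo1 and Rpe change sides of 0 with the offset.

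RNA of the main glucose transporter was lower in RKIP KO, while none of the 3 hexokinases passed the test. Slc2a1, the glucose transporter GLUT1 (chr4:119108711-119137983), stood at 11.2, 12.4 and 10.6 FPKM in RKIP KO libraries 1 to 3, against 16.0, 16.5 and 16.1 FPKM in WT libraries 1 to 3. The groups did not overlap, and the log2 fold change was -0.56 ± 0.06 (edgeR, adjusted p = 3.12e-05; ± is an approximate standard error here and in later fold changes). Hexokinases phosphorylate glucose and so hold it in the cell. Hk3, which made up most of the hexokinase RNA, had 65.8, 65.8 and 65.0 FPKM in RKIP KO libraries, against 62.8, 67.8 and 70.7 FPKM in WT libraries. All RKIP KO values of Hk3 fell inside the WT range. Hk1 averaged 16.3 ± 1.22 FPKM in RKIP KO and 17.4 ± 1.14 FPKM in WT (SD, n = 3 each), and Hk2 12.3 ± 0.423 and 12.3 ± 0.556 FPKM. Their log2 fold changes were -0.15 ± 0.06 for Hk1, -0.05 ± 0.05 for Hk2 and -0.09 ± 0.05 for Hk3. Hk1 passed as lower with the length and GC offset at a log2 fold change of -0.13, and without RKIP KO library 2 or WT library 1 at -0.20 each. Hk3 passed without WT library 1, at -0.13.

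In upper glycolysis, from glucose 6-phosphate to triose phosphate, 5 of 7 genes were lower in RKIP KO. Tpi1, which interconverts the triose phosphates, had 71.9, 76.1 and 70.9 FPKM in RKIP KO libraries, against 99.1, 97.0 and 97.2 FPKM in WT libraries. Pfkl, the liver-type phosphofructokinase of the committed step, had 12.5, 14.1 and 12.02 FPKM in RKIP KO libraries, against 16.7, 16.9 and 16.3 FPKM in WT libraries. For both genes all RKIP KO libraries lay below all WT libraries, with log2 fold changes of -0.48 ± 0.04 for Tpi1 (edgeR, adjusted p = 9.99e-06) and -0.42 ± 0.05 for Pfkl (edgeR, adjusted p = 0.000121). With the length and GC offset Tpi1 was at -0.29 and still passed. Gpi1, the isomerase that follows hexokinase, had 63.3, 67.9 and 63.6 FPKM in RKIP KO libraries, against 74.3, 74.5 and 74.6 FPKM in WT libraries, a log2 fold change of -0.25 ± 0.04. Its WT libraries were almost equal and lay above every RKIP KO library (edgeR, adjusted p = 0.000479).

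Aldoa, the main aldolase, had the highest level of this step, with 285, 299.7 and 274 FPKM in RKIP KO libraries, against 325, 335 and 329.8 FPKM in WT libraries. The groups did not overlap and the log2 fold change was -0.26 ± 0.04 (edgeR, adjusted p = 0.000527), but with the length and GC offset it was -0.08 and no longer passed. Pfkp, the platelet-type phosphofructokinase, averaged 2.85 ± 0.137 FPKM in RKIP KO and 3.32 ± 0.148 FPKM in WT (SD, n = 3 each), a log2 fold change of -0.27 ± 0.06 that grew to -0.46 with the offset and did not pass in limma. Pfkm, the muscle type, averaged 7.67 ± 0.689 FPKM in RKIP KO and 7.504 ± 0.201 FPKM in WT, and Aldoc, the brain type of aldolase, 10.1 ± 0.930 and 10.48 ± 1.14 FPKM. Neither passed the test, and their groups overlapped. Pfkfb3 and Pfkfb4 make fructose 2,6-bisphosphate, the activator of phosphofructokinase. Pfkfb3 had 6.23, 6.09 and 5.72 FPKM in RKIP KO libraries, against 6.72, 6.82 and 6.51 FPKM in WT libraries. It was lower in every RKIP KO library, with a log2 fold change of -0.21 ± 0.05 (edgeR, adjusted p = 0.00909) that did not pass in limma. Pfkfb4 averaged 9.42 ± 0.632 FPKM in RKIP KO and 8.98 ± 0.415 FPKM in WT and did not pass.

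Lower glycolysis, from glyceraldehyde 3-phosphate to pyruvate, was lower in RKIP KO at 5 of its 6 genes. Its summed level was 599 ± 3.84 FPKM in RKIP KO and 814 ± 2.34 FPKM in WT (SD, n = 3 each). This sum takes the own row of each gene and leaves out the copies of Gapdh and Eno1 that are described further on. The Gapdh copy Gm13394 alone was listed at 606 FPKM in RKIP KO and 789 FPKM in WT, so most of the Gapdh signal is not in the sum. Pkm, the pyruvate kinase and last enzyme of the chain (chr9:59656368-59679375), had 247, 250.4 and 246 FPKM in RKIP KO libraries, against 357, 341 and 348 FPKM in WT libraries. The 3 RKIP KO values differed by less than 5 FPKM while the groups were about 100 FPKM apart, and the log2 fold change was -0.55 ± 0.04 (edgeR, adjusted p = 9.77e-07). Pgk1, which makes the first ATP of the pathway, had 128, 123 and 131 FPKM in RKIP KO libraries, against 169, 174 and 177 FPKM in WT libraries. Eno1, the main enolase, had 74.9, 75.6 and 74.9 FPKM in RKIP KO libraries, against 101, 108 and 104 FPKM in WT libraries. Pgam1, the mutase between these enzymes, had 142, 148 and 138 FPKM in RKIP KO libraries, against 175, 179.6 and 177 FPKM in WT libraries. None of these groups overlapped. The log2 fold changes were -0.50 ± 0.04 for Pgk1 (edgeR, adjusted p = 8.45e-06), -0.53 ± 0.04 for Eno1 (edgeR, adjusted p = 3.28e-06) and -0.37 ± 0.04 for Pgam1 (edgeR, adjusted p = 4.92e-05). With the offset Pgam1 was at -0.21 and still passed.

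Eno3, the muscle enolase, varied most. It had 2.54, 1.44 and 1.22 FPKM in RKIP KO libraries, against 2.31, 2.73 and 2.35 FPKM in WT libraries. RKIP KO library 1 lay among the WT libraries and the other RKIP KO libraries lay below them, so the log2 fold change of -0.55 ± 0.25 did not pass (edgeR, adjusted p = 0.0945). Without RKIP KO library 1 it was -0.95 and passed.

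Gapdh was lower in RKIP KO, but its row holds a small part of the reads that fit it. The row stood at 3.996, 4.06 and 3.56 FPKM in RKIP KO libraries, against 7.80, 7.45 and 7.06 FPKM in WT libraries. The groups did not overlap, with a log2 fold change of -0.99 ± 0.08 (edgeR, adjusted p = 3.57e-06), a size that holds for the single row. In the table, 121 copies of Gapdh were found, with at least 85% identity over at least 50% of the copy. Gm13394 alone was listed at 606 ± 21.5 FPKM in RKIP KO and 789 ± 19.7 FPKM in WT (SD, n = 3 each). Of the summed estimated counts of Gapdh and its copies, the Gapdh row held 1.33, 1.31 and 1.21% in RKIP KO libraries and 1.77, 1.66 and 1.599% in WT libraries.

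Summed with its copies, Gapdh had 1332, 1361 and 1283 CPM (counts scaled to an equal library total) in RKIP KO libraries, against 2051, 2096 and 2060 CPM in WT libraries. The groups again did not overlap, and the log2 fold change was -0.61 ± 0.04 (edgeR, adjusted p = 6.26e-07), or 1.53-fold lower in RKIP KO. Without the length and GC offset this is less than the changes of Slc16a3 and Ldhb given further on. With copies summed and that offset, Gapdh was at -0.55, Slc16a3 at -0.87 and Ldhb at -0.49, so the order of Gapdh and Ldhb turned round. With copies summed and no such offset, 18.8% of all tested genes were lower and 20.6% higher. Taken singly in the main fit, 25 of the 26 tested copies were lower, beside 19.4% lower and 20.3% higher of all tested genes. The copies share reads with Gapdh, so these calls are not independent of its row or of each other. Summing the copies was chosen after the data were seen. No source used here says how reads were divided between Gapdh and its copies, so the value of the single row is uncertain. Eno1 has 5 copies, which include Eno1b and the pseudogene Gm4735, and its row held 59.8 to 61.7% of the summed counts. Its log2 fold change was -0.53 with the copies and without them. For Pgam1 and Pgk1 the row held 93.7% or more, and their values with copies were -0.38 and -0.51.

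**Figure D3:**
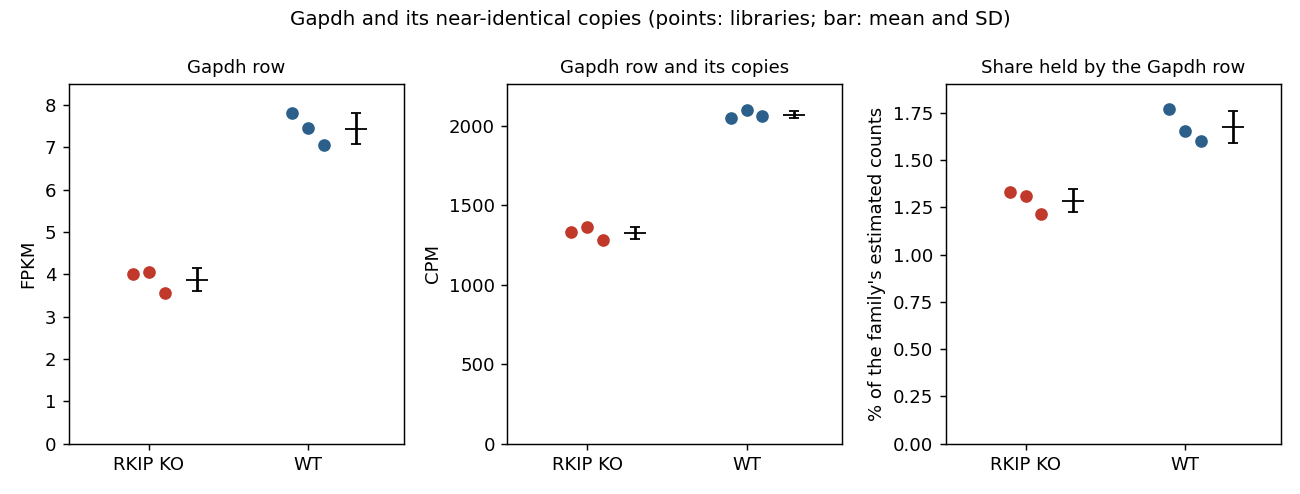
Gapdh by library, RKIP KO left and WT right: FPKM of the Gapdh row, CPM of the row together with its 121 copies, and the share of those counts in the row. Bars are means and SD of 3 libraries. RKIP KO lies below WT in all 3 panels, with sums of 1283 to 1361 CPM in RKIP KO and 2051 to 2096 CPM in WT libraries.

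Of 4 genes of lactate formation and export, 3 were lower in RKIP KO. Ldha, the lactate dehydrogenase subunit that favours lactate formation (chr7:46841475-46855627), had 109, 115 and 107 FPKM in RKIP KO libraries, against 149.6, 154 and 149 FPKM in WT libraries. Ldhb, the subunit that favours the return to pyruvate, had 23.0, 22.2 and 22.6 FPKM in RKIP KO libraries, against 36.1, 37.4 and 34.0 FPKM in WT libraries. Both subunits were lower in every RKIP KO library, with log2 fold changes of -0.51 ± 0.04 for Ldha (edgeR, adjusted p = 5.41e-06) and -0.72 ± 0.05 for Ldhb (edgeR, adjusted p = 2.94e-06). With the length and GC offset the value of Ldhb, a short transcript, was -0.47. Slc16a3, the lactate exporter MCT4 (chr11:120948480-120958775), had 5.32, 5.95 and 5.11 FPKM in RKIP KO libraries, against 9.22, 9.64 and 10.3 FPKM in WT libraries. Its groups were far apart, with a log2 fold change of -0.89 ± 0.07 (edgeR, adjusted p = 3.97e-06), and -0.87 with the offset. Slc16a1, the transporter MCT1, had 2.89, 2.66 and 2.31 FPKM in RKIP KO libraries, against 2.73, 3.01 and 3.08 FPKM in WT libraries. These groups overlapped, and the log2 fold change of -0.22 ± 0.11 did not pass (edgeR, adjusted p = 0.121), while with the offset it was -0.33 and passed.

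The pyruvate dehydrogenase kinases, which shut the entry of pyruvate into mitochondrial oxidation, were lower at 1 of 2 genes. Pdk1 had 5.01, 5.13 and 5.25 FPKM in RKIP KO libraries, against 5.54, 5.97 and 5.63 FPKM in WT libraries. It was lower in every RKIP KO library, at a log2 fold change of -0.21 ± 0.05 (edgeR, adjusted p = 0.00787) that did not pass in limma. Pdk3 averaged 7.505 ± 0.603 FPKM in RKIP KO and 7.65 ± 0.128 FPKM in WT (SD, n = 3 each) and did not pass.

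Hif1a, the oxygen-labile subunit, had nearly the same level in both genotypes. It stood at 33.01, 33.2 and 34.2 FPKM in RKIP KO libraries, against 34.96, 33.3 and 33.5 FPKM in WT libraries. The groups overlapped and the log2 fold change of -0.07 ± 0.04 did not pass (edgeR, adjusted p = 0.182), but with the length and GC offset it was -0.24 and passed as lower. HIF-1 alpha is regulated mainly through the stability of the protein, which RNA does not show. Vegfa, the vascular growth factor and a known HIF target, had 13.4, 15.3 and 14.2 FPKM in RKIP KO libraries, against 15.4, 16.0 and 16.4 FPKM in WT libraries. RKIP KO library 2 came close to WT library 1, and the log2 fold change was -0.21 ± 0.05 (edgeR, adjusted p = 0.00664), a call that ended in limma and with no filter on level. Bnip3, a mitophagy receptor, had 17.6, 17.4 and 17.4 FPKM in RKIP KO libraries, against 18.9, 19.0 and 18.1 FPKM in WT libraries. Its groups lay side by side, at a log2 fold change of -0.15 ± 0.05 (edgeR, adjusted p = 0.0377). That call ended in 14 of 20 alternatives, among them leaving out any 1 library other than WT library 3 (log2 fold changes of -0.17 to -0.14) and the length and GC offset (-0.11), so it rests on a narrow margin. Egln3, the HIF prolyl hydroxylase PHD3, was under the filter, with 0.380, 0.431 and 0.642 FPKM in RKIP KO libraries, against 0.604, 0.516 and 0.520 FPKM in WT libraries, and was not tested.

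Of the 7 pentose phosphate genes, 4 were lower in RKIP KO. Of the oxidative branch, which yields NADPH, 1 of 3 genes passed. G6pdx, the dehydrogenase that opens it, had 131, 134 and 136 FPKM in RKIP KO libraries, against 143, 132 and 142 FPKM in WT libraries. WT library 2 lay among the RKIP KO libraries, and the log2 fold change of -0.11 ± 0.04 did not pass (edgeR, adjusted p = 0.0624). Without WT library 2 it was -0.14 and passed. Pgd, the second dehydrogenase, had 124, 124 and 123 FPKM in RKIP KO libraries, against 139.9, 132 and 138 FPKM in WT libraries. Every RKIP KO library was lower, with a log2 fold change of -0.20 ± 0.04 (edgeR, adjusted p = 0.00195), and the value was again -0.20 with the length and GC offset. Pgls, the lactonase between them, averaged 7.19 ± 0.614 FPKM in RKIP KO and 7.61 ± 0.353 FPKM in WT (SD, n = 3 each). It did not pass with all libraries, and passed without RKIP KO library 2 at a log2 fold change of -0.20.

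The non-oxidative branch exchanges carbon units between sugar phosphates and returns them to glycolysis, and 3 of its 4 genes were lower. Tkt, transketolase, had 46.2, 47.9 and 45.2 FPKM in RKIP KO libraries, against 50.2, 51.001 and 49.6 FPKM in WT libraries. Taldo1, transaldolase, had 119, 120.5 and 127 FPKM in RKIP KO libraries, against 134, 132 and 133 FPKM in WT libraries. Neither gene's groups overlapped, and the log2 fold changes were -0.17 ± 0.04 for Tkt (edgeR, adjusted p = 0.00604) and -0.18 ± 0.04 for Taldo1 (edgeR, adjusted p = 0.00474). With the length and GC offset Tkt was at -0.09 and still passed, while Taldo1 was at 0.06 and did not. Rpia, the ribose phosphate isomerase, had 1.44, 1.44 and 1.24 FPKM in RKIP KO libraries, against 1.71, 1.91 and 1.83 FPKM in WT libraries. This low gene was lower in every RKIP KO library, with a log2 fold change of -0.46 ± 0.11 (edgeR, adjusted p = 0.00679), and -0.47 with the offset. Rpe, the epimerase, averaged 11.5 ± 0.711 FPKM in RKIP KO and 10.6 ± 0.641 FPKM in WT and did not pass.

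The steps can also be set side by side as summed levels in FPKM. Lactate and monocarboxylate genes summed to 141 ± 4.43 FPKM in RKIP KO and 199 ± 3.90 FPKM in WT (SD, n = 3 each), a difference of -29.3%. For lower glycolysis the difference was -26.4%, without the copies of Gapdh and Eno1. Upper glycolysis summed to 458 ± 19.3 FPKM in RKIP KO and 540.1 ± 5.42 FPKM in WT, a difference of -15.2%. The oxidative and the non-oxidative pentose phosphate genes differed by -6.54% and -7.27%, and the glucose transporter with the hexokinases by -6.60%. The pyruvate dehydrogenase kinases differed by -5.48%, the HIF factor with its targets by -4.85% and the phosphofructokinase regulators by -1.45%. The genotypes overlapped in the sums of the glucose transporter with the hexokinases, of the kinases and of the regulators. These sums hold no length and GC offset. With it, the median log2 fold change went from -0.61 to -0.41 for lactate and monocarboxylate genes and from -0.54 to -0.39 for lower glycolysis. It went from -0.26 to -0.19 for upper glycolysis, and from -0.14 to -0.05 and -0.17 to -0.07 for the oxidative and non-oxidative pentose phosphate genes. For the HIF factor with its targets it went from -0.15 to -0.18. Differences between steps were not tested.

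The share of an enzyme family's FPKM held by 1 isoform did not pass the test in any of 12 cases, with adjusted p of 0.24 or more in exact permutation tests. In 5 of them the genotypes did not overlap, and in 7 they did. For comparison, the FPKM of all tested genes did not overlap in 19.1% with RKIP KO lower and in 32.4% with RKIP KO higher. Pfkl made up 53.6, 56.4 and 54.98% of phosphofructokinase RNA in RKIP KO libraries, against 60.2, 60.9 and 60.8% in WT libraries. Pfkm took 34.9, 32.0 and 31.5% in RKIP KO libraries, against 27.8, 26.7 and 27.4% in WT libraries. The share of Pfkl was thus lower, and that of Pfkm higher, in every RKIP KO library. Shares within a family depend on each other, and Pfkm itself did not pass, at a log2 fold change of -0.02. Slc16a1 made up 35.2, 30.9 and 31.1% of the pair of monocarboxylate transporters in RKIP KO libraries, against 22.8, 23.8 and 23.0% in WT libraries, without overlap. With Slc16a7, a further monocarboxylate transporter, added to the sum after the data were seen, its share was 19.4, 18.2 and 16.3% in RKIP KO libraries, against 17.6, 18.3 and 17.7% in WT libraries, and the groups overlapped. Ldha made up 83.0 ± 0.760% of lactate dehydrogenase RNA in RKIP KO and 80.8 ± 0.552% in WT, and Pfkfb3 39.0 ± 1.02% and 42.7 ± 1.23% of its pair (SD, n = 3 each), also without overlap, both with these pairs and with further genes of each family added. In each of these 5 shares the exact permutation test gave a two-sided p of 0.1, the smallest that 3 against 3 libraries allow, or 0.24 adjusted over the 12 shares examined. In the other 7 shares the groups overlapped, and Hk3 made up 69.6 ± 1.02% of hexokinase RNA in RKIP KO and 69.4 ± 0.358% in WT (n = 3 each).

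**Figure D4:**
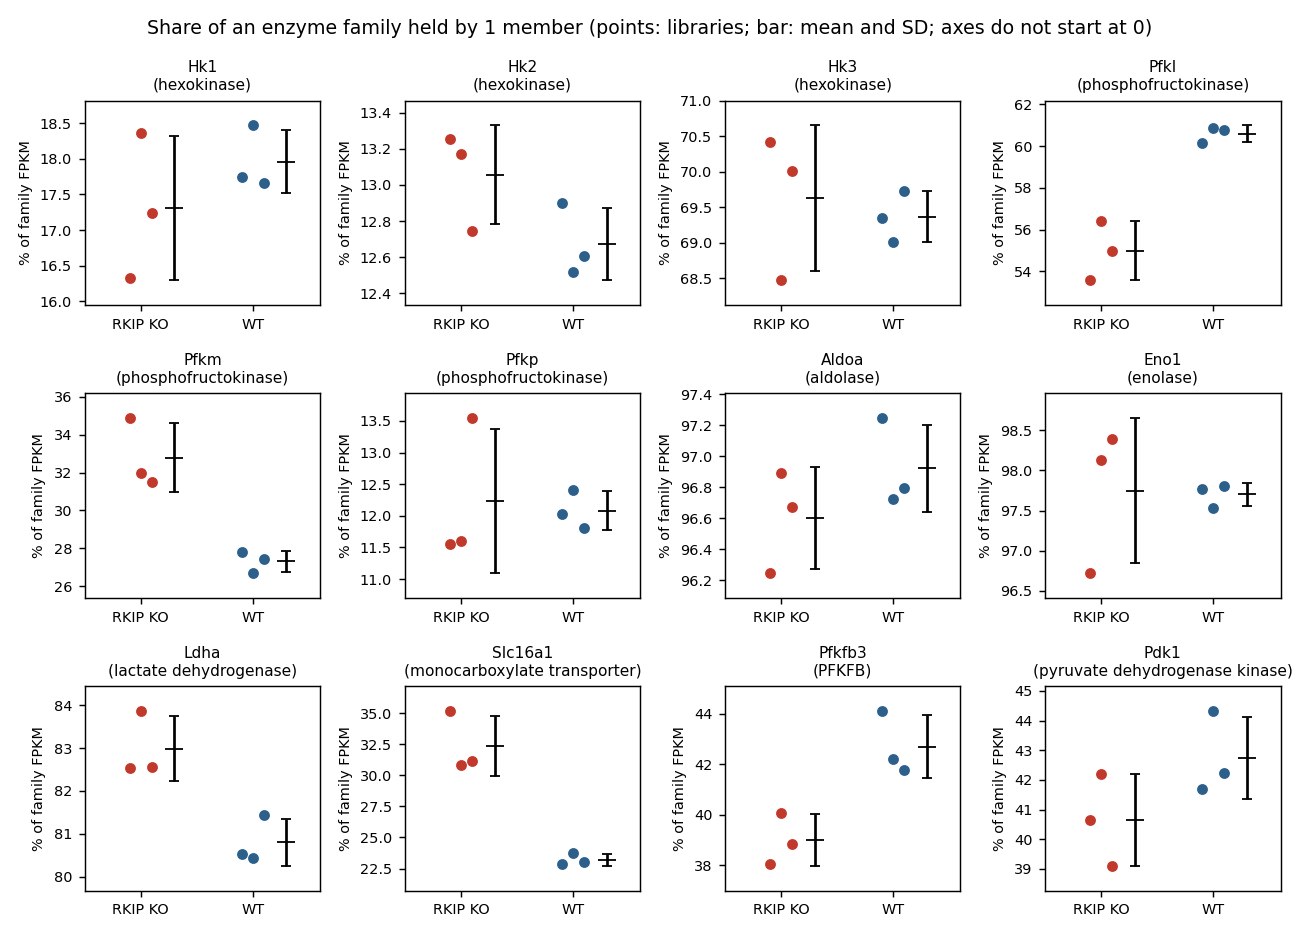
Share of an enzyme family's summed FPKM held by 1 member in each library, RKIP KO left and WT right, with means and SD of 3 libraries; the axes do not start at 0. Pfkl, Pfkm, Ldha, Slc16a1 (of Slc16a1 and Slc16a3) and Pfkfb3 have no overlap between the genotypes, and the other 7 shares overlap.

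Other genes of the same pathways were taken from 5 further lists, of which up to 4 genes with the smallest p are named. Among 21 tested genes of glycolysis outside the 36, 8 were lower and 2 higher in RKIP KO, with a median log2 fold change of -0.15. That is 38.1% lower and 9.52% higher, beside 19.4% and 20.3% of all tested genes. Slc16a7, the monocarboxylate transporter MCT2, went the other way from Slc16a3: it had 6.67, 6.02 and 6.79 FPKM in RKIP KO libraries, against 3.53, 3.79 and 3.97 FPKM in WT libraries. It was higher in every RKIP KO library, at a log2 fold change of 0.73 ± 0.06 (edgeR, adjusted p = 7.14e-06). With the length and GC offset it was 0.38 and still passed. The glucose transporter gene Slc2a6 averaged 3.70 ± 0.318 FPKM in RKIP KO and 5.81 ± 0.111 FPKM in WT (SD, n = 3 each), and Bsg, the chaperone of MCT1 and MCT4, 120.3 ± 3.73 and 144 ± 3.91 FPKM. Both passed as lower, at log2 fold changes of -0.71 ± 0.08 and -0.32 ± 0.04, as did Eno1b at -0.54 ± 0.05, which shares reads with Eno1. With the offset Bsg was at -0.14 and still passed, and the counts of this list were 6 lower and 2 higher. The offset fit called 14.6% of all tested genes lower and 17.0% higher.

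Of 8 tested genes beside the pentose phosphate pathway, 1 passed and was higher in RKIP KO (edgeR), where 19.4% of all tested genes were lower and 20.3% higher. The gene was Prps2, which makes the phosphoribosyl donor of nucleotide synthesis. It had 20.2, 20.7 and 21.4 FPKM in RKIP KO libraries, against 14.2, 14.0 and 15.5 FPKM in WT libraries. Its groups were well apart, with a log2 fold change of 0.46 ± 0.05 (edgeR, adjusted p = 3.59e-05). Prps1, Rbks and Idh1, next in order of p, did not pass, at log2 fold changes of -0.26 ± 0.10, -0.36 ± 0.16 and -0.04 ± 0.05. Of 13 genes of pyruvate entry into mitochondria, 2 were lower and 2 higher (15.4% each). The kinase gene Pdk4 had 19.7 ± 0.214 FPKM in RKIP KO and 23.3 ± 0.333 FPKM in WT (SD, n = 3 each), a log2 fold change of -0.30 ± 0.04 (edgeR, adjusted p = 0.000125). Pdpr, the regulatory subunit of the opposing phosphatase, was higher at 0.39 ± 0.08 (edgeR, adjusted p = 0.00268). The calls of Pdhb, a subunit of pyruvate dehydrogenase (-0.20 ± 0.06), and of Pdp1, the phosphatase itself (0.21 ± 0.07), ended with the offset.

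Among 10 tested HIF subunits and oxygen sensing genes, 2 were lower and 1 higher, beside the same 19.4% and 20.3% of all tested genes, with a median log2 fold change of -0.07. Arnt, the stable partner of HIF-1 alpha, averaged 10.4 ± 0.211 FPKM in RKIP KO and 9.02 ± 0.454 FPKM in WT (SD, n = 3 each), higher by a log2 fold change of 0.16 ± 0.04 (edgeR, adjusted p = 0.0168). Rbx1, of the ligase complex that marks HIF-1 alpha for breakdown, was lower at -0.23 ± 0.07 (edgeR, adjusted p = 0.0188). Elob, of the same complex, was lower at -0.38 ± 0.05, a call that ended with the offset at -0.04, and Egln2, a HIF prolyl hydroxylase, did not pass at -0.16 ± 0.06. Of 29 tested HIF target genes outside glycolysis, 14 were lower and 8 higher (48.3% and 27.6%). With the offset 12 were lower and 5 higher, beside 14.6% lower and 17.0% higher of all tested genes. Mif, a cytokine that macrophages release, had 72.5, 72.3 and 68.9 FPKM in RKIP KO libraries, against 112, 119.7 and 117 FPKM in WT libraries. Every RKIP KO library of Mif was far below every WT library, at a log2 fold change of -0.76 ± 0.05 (edgeR, adjusted p = 6.55e-07). Ddit4, an inhibitor of mTORC1 signalling, averaged 9.57 ± 0.317 FPKM in RKIP KO and 14.6 ± 0.4998 FPKM in WT (SD, n = 3 each), and Fam162a, a HIF-responsive gene, 12.3 ± 0.551 and 19.9 ± 0.819 FPKM. Both passed as lower, at -0.66 ± 0.07 for Ddit4 and -0.74 ± 0.08 for Fam162a, and with the offset at -0.53 and -0.37.

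**Figure D5:**
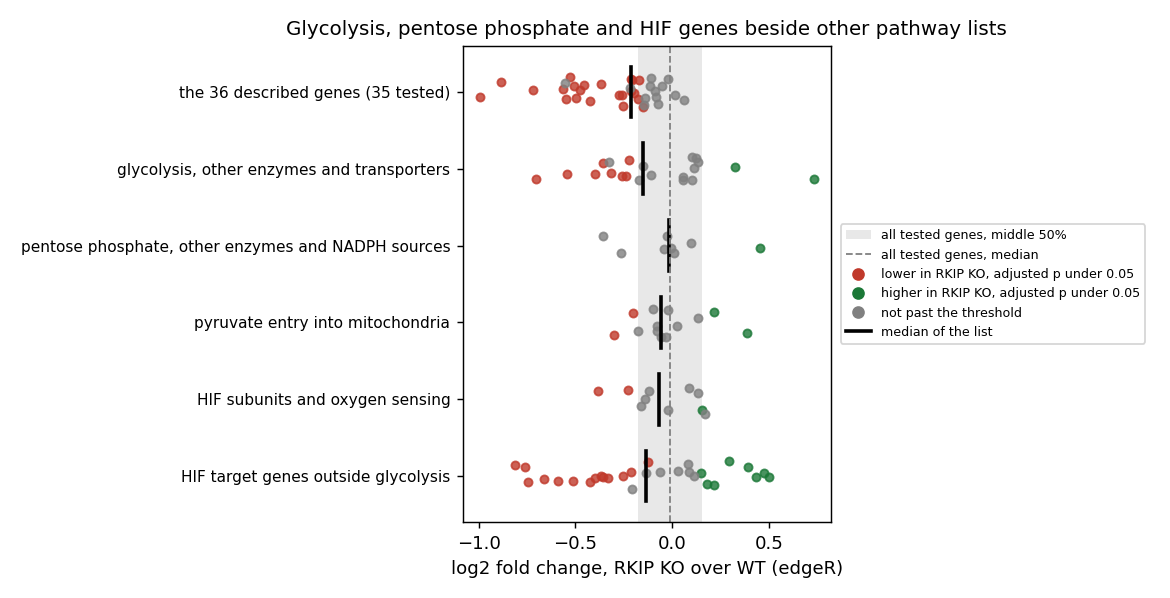
Log2 fold change of each tested gene, RKIP KO over WT, for the 36 genes described here (35 tested) and for 5 other pathway lists. The black bars are list medians, the dashed line is the median of all tested genes and the grey band their middle 50%. The 36 genes have no point called higher, while the HIF targets outside glycolysis have calls on both sides.

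Some rows overlap another gene on the genome, and no source used here states if counting was done by strand. Pfkm overlaps Senp1 on the opposite strand, Gapdh overlaps Iffo1, Pfkp Pitrm1, Rpe Kansl1l, G6pdx Ikbkg and Tpi1 Spsb2. In mean counts the neighbour exceeded the member for Pfkm (1736 beside 1677), Gapdh (1860 beside 1509) and Pfkp (4181.5 beside 2725.5). It held fewer for Rpe (1112 beside 2289.5), G6pdx (4369 beside 27723) and Tpi1 (913 beside 15371.5). If strand was not used, reads of these pairs cannot be told apart. Pkm shares its strand with the gene model Gm49759, which held 2612 counts on average beside 97327 for Pkm.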

How the data were processed

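RNA was measured in 6 libraries, 3 RKIP KO and 3 WT, grouped by their labels. Per the labels' protocols, oligo(dT)-selected RNA was made into dUTP libraries. The authors deposited an FPKM and an estimated count, rounded to whole numbers, for each gene and library. The submitters' processing notes name cutadapt 1.9, HISAT2 2.0.4 and StringTie 1.3.4d. Genome build, annotation and strand setting were not given in the sources used here. Gene IDs matched GENCODE M21 for 27382 of 27458 genes, and gene coordinates are those of the deposited table.

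Genes whose mean reached 1 FPKM were compared with edgeR 4.0.16 (quasi-likelihood test, R 4.3.3), which took the deposited estimated counts with TMM scaling, two-sided and adjusted by Benjamini-Hochberg over all 11636 genes with a threshold of 0.05. Standard errors were worked back from F and the log2 fold change. Fold changes differ slightly from ratios of mean FPKM because of the scaling. About 4 estimated counts stand for 1 fragment, and dividing by 4 was an alternative. Others were limma 3.58.1 on log2(FPKM + 1, 0.5 or 0.1), DESeq2 1.42.0, median-ratio scaling, library totals, other filters, a loess offset (span 0.3) for the length and GC content of the longest transcript, the replicate number as a block, and leaving out each library. Copies were found with minimap2 2.31, at 50% cover and 85% identity, and summing them was added after seeing the data. Isoform shares were compared by exact permutation tests, and again with further genes of each family added, an alternative chosen after seeing the data. The edgeR step was tested on simulated counts. All members are named, and of each other list the 4 genes with the smallest p, except a gene that is not reported here. The members and lists were chosen with earlier results of these data known.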

Additional observations from a re-analysis of the deposited data

How the results depend on the processing

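The 35 tested genes were each fitted under 20 alternatives, and the counts of lower and higher genes kept within 1.5 times of the main counts in all of them. The number lower was 17 in limma with each pseudocount (1, 0.5 and 0.1), 24 in DESeq2 and with library totals only, 20 with no filter on level and 21 to 23 when 1 library was left out, and the number higher was 0 throughout. Of 700 values of single genes, 628 kept direction and side of the threshold, 29 no longer passed, 21 newly passed and 22 changed sign. The sign changes were in genes that did not pass, apart from Taldo1. They were Hk2 in limma (0.00427, 0.00445 and 0.00461), Pfkm in limma (0.0253, 0.0267 and 0.0279), and Pfkfb4 with library totals only (-0.0127). With the length and GC offset, with that offset and the replicate block, and with that offset and copies summed, values were 0.0719, 0.0692 and 0.0719 for Pfkm, 0.0634, 0.0628 and 0.0464 for Taldo1, -0.0393, -0.0374 and -0.0394 for Rpe, and 0.0155, 0.0132 and 0.0159 for Pdk3. The cause was not tested. Leaving out 1 library gave -0.0781 to 0.0560 for Pfkm and -0.0522 to 0.0516 for Pfkfb4. Differences in isoform share, in percentage points, ranged from -0.125 to 0.846 for Hk3, -0.508 to 0.487 for Pfkp and -0.276 to 0.563 for Eno1 when 1 library was left out.

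Replicate numbers are shared by the genotypes, but same-numbered libraries did not deviate together (r of 0.02, 0.19 and -0.04), so the numbers were not read as pairs. With the replicate block 23 of the 35 genes were lower and 0 higher, and 4701 genes were called in all: Hk1 (-0.15) and Eno3 (-0.62) newly passed and Bnip3 (-0.15) no longer passed. On simulated counts of 11636 genes, edgeR found 47 of 50 changes of 2-fold, 42 of 50 of 1.5-fold and 28 of 50 of the smallest size simulated. That smallest size is larger than the changes of Hk1 or G6pdx. The simulation changed 200 genes, while the main fit called 4617 genes in the data. Adjusted p depends on how many genes change, so these rates need not hold for the data.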
